A study of Mus musculus with 2 samples.

Results

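The claudins described here are the 10 family members Cldn1, Cldn3, Cldn4, Cldn5, Cldn7, Cldn8, Cldn10, Cldn12, Cldn18 and Cldn23, chosen by name as claudins of lung barriers. All 10 symbols matched 1 row each among the 43346 gene rows, and they have 25 of the 103639 annotated transcripts. The RNA was polyadenylated RNA from whole lung of 1 adult female C57BL/6J mouse aged 10 weeks, with no transgene or treatment named in the labels. It was sequenced as 2 libraries, called technical replicates 1 and 2 of 1 biological replicate, with replicate 2 placed at a later date by the labels, so library and date cannot be told apart. They form 1 group, so the comparison open to the data is how far each claudin differed between 2 measurements of the same lung. The labels do not say whether both libraries came from 1 RNA extraction, so a difference in the tissue sampled cannot be told apart from one in the library. With 1 library on each side there is no replicate check and no p-value, and every SD is over n = 2 libraries of 1 animal.

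Claudins are small membrane proteins with 4 passes through the membrane whose extracellular loops join neighbouring cells into the strands of the tight junction. Each tight junction mixes several claudins, and the mixture sets how well the space between cells is sealed and which ions pass. In lung, Cldn18 is the abundant claudin of the alveolar epithelium, Cldn3 and Cldn4 are also epithelial, with Cldn4 linked to fluid clearance and Cldn3 to alveolar type 2 cells, and Cldn5 is the main claudin of the endothelium. Most claudins end in a motif that binds the PDZ domains of cytoplasmic scaffold proteins, among them ZO-1 and ZO-3, which are encoded by Tjp1 and Tjp3.

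The claudin signature lies in the first extracellular loop, where a glycine-leucine-tryptophan motif is followed by a pair of cysteines. It was found in the coding sequence of all 10 genes. The stretches below run from the tryptophan motif to the second cysteine codon and are shown because they contain what the family shares and where Cldn12 differs in length from the others. They are read on the coding strand of GENCODE M21 transcripts on GRCm38, and capitals mark the codons of the tryptophan motif and the 2 cysteines.
Cldn3: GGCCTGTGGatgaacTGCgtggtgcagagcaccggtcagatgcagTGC
Cldn4: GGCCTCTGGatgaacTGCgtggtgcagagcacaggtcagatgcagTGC
Cldn5: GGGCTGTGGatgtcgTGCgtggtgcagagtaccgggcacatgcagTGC
Cldn18: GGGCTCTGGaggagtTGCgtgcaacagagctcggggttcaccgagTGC
Cldn8: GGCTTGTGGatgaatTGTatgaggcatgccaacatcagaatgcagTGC
Cldn12: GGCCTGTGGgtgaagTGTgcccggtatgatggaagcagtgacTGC

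Cldn3 and Cldn4 had the same base at 46 of these 48 positions, the closest of all pairs among the 9 claudins with a stretch of that length. Cldn3 and Cldn5 had the same base at 41 of 48. Cldn12 has 8 codons between its cysteines and the other 9 genes have 9, so its stretch is 45 bases long. The coding sequences of 8 genes end in the tyrosine-valine pair of the PDZ-binding motif, and those of Cldn12 and Cldn23 do not. The stretch of Cldn8 holds 47.9% G and C, the lowest of the 10, and those of Cldn5, Cldn7, Cldn18 and Cldn23 hold 64.6%.

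The libraries held 16104442 and 17110882 expected counts, with values above 0 for 17892 and 19597 genes. Markers of the labelled tissue were listed by cell type. All 7 listed alveolar type 1 genes, all 6 type 2 genes and all 6 endothelial genes reached a mean of 1 TPM. Their summed levels in replicates 1 and 2 were 1394 and 4166 TPM, 1779 and 42812 TPM, and 649 and 1311 TPM. Much of each sum in replicate 2 was 1 gene, namely Ager (13.7 and 2508 TPM), Sftpc (287 and 39612 TPM) and Egfl7 (61.3 and 759 TPM). By the scaled counts described below, 3, 3 and 2 genes of these lists were over 2-fold higher in replicate 2. Over 2-fold lower were 3, 1 and 2, and the background of all genes tested was 39.3% higher and 28.2% lower. All 4 club cell genes, at 22712 and 185631 TPM, and all 4 ciliated cell genes, at 101 and 769 TPM, also reached a mean of 1 TPM. The ciliated cell gene Foxj1 was at 0.11 and 42.8 TPM, with 3 counts in replicate 1. Atrial muscle and red cell genes were also present, at 105 and 1078 TPM and at 1774 and 15874 TPM, and basal and squamous epithelial genes summed to 1.36 and 2.25 TPM. The main transcripts (those of highest mean TPM) of Foxj1 and Tppp3 have 61.4% and 59.2% GC. Those of the other ciliated cell genes, Dynlrb2 and Ccdc113, have 47.8% and 48.9% GC, and these genes were 2.00-fold and 1.55-fold higher in replicate 2. The ratio between the libraries followed GC content over all tested genes, as described further on, and its part in the marker levels was not tested. In bulk tissue, fewer cells of a type and less RNA per cell cannot be told apart either.

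The claudins summed to 595 and 1024 TPM in replicates 1 and 2, a mean of 809.6 ± 304 TPM (SD, n = 2). TPM is an abundance within a fixed total of transcripts, corrected for length, which allows genes of different length to be compared. The ratio between the libraries followed GC content, with a rank correlation of 0.873 over all tested genes, as described further on. Orders and shares of claudins of unlike GC content therefore depend on the library. Between libraries TPM also depends on the other genes in the fixed total. The 4 club cell genes took 22712 and 185631 TPM of that total, which left less of it to other genes in replicate 2. The mixture differed more than the sum. Cldn18 made up 68.4% of the claudin TPM in replicate 1 and 17.2% in replicate 2, whereas Cldn5 made up 0.0723% and 59.2%. Cldn10 made up 18.6% and 4.14%, and Cldn3, the lowest in replicate 1, made up 0.0134% and 11.7%. Without Cldn5 the sum was 594 and 418 TPM in replicates 1 and 2, so which library had the larger sum turned on that gene. Across the 10 genes the rank correlation of TPM between the libraries was 0.103 (Spearman's rho, a description over 10 genes measured in the same 2 libraries).

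**Figure D1:**
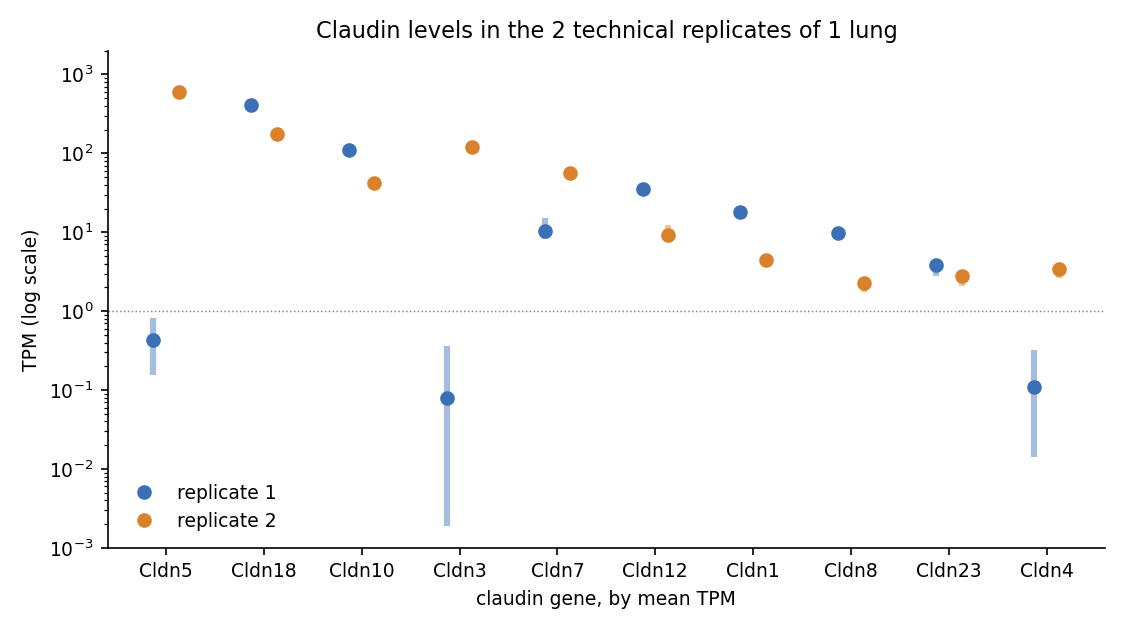
Level of each claudin in TPM, on a log scale, in replicate 1 (blue) and replicate 2 (orange) of 1 lung. Genes are ordered by mean TPM, and the dotted line marks a TPM of 1. Bars are the interval deposited by the authors for each gene and library, which for some genes lies just below the plotted TPM and does not contain it. Cldn5, Cldn3 and Cldn4 lie below 1 TPM in replicate 1 and above it in replicate 2, and the other 7 lie above it in both.

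Within replicate 1 the order of levels was Cldn18, Cldn10, Cldn12, Cldn1, Cldn7, Cldn8, Cldn23, Cldn5, Cldn4 and Cldn3. The authors' intervals overlapped for 4 of the 9 neighbouring pairs in that order, namely Cldn1 with Cldn7, Cldn7 with Cldn8, Cldn5 with Cldn4 and Cldn4 with Cldn3. These intervals do not always contain the TPM that sets the order, as for Cldn18 in replicate 1, with 368 to 385 beside 407 TPM. Within replicate 2 the order was Cldn5, Cldn18, Cldn3, Cldn7, Cldn10, Cldn12, Cldn1, Cldn4, Cldn23 and Cldn8. There the intervals of 3 neighbouring pairs overlapped, all among the last 4 genes. By the mean of both libraries, 8 of 9 neighbouring pairs lay within each other's SD, and the exception was Cldn18 above Cldn10.

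Between the libraries, 4 of 10 claudins were over 2-fold higher in replicate 2, namely Cldn5, Cldn3, Cldn4 and Cldn7, and 3 were over 2-fold lower, namely Cldn8, Cldn1 and Cldn12. Cldn10, Cldn18 and Cldn23 lay within 2-fold. The background among all 14139 genes that reached a mean of 1 TPM was 39.3% past 2-fold upward in replicate 2 and 28.2% past 2-fold downward, so the claudins' shares were near the background. Cldn5, Cldn3 and Cldn4, at 0.43, 0.08 and 0.11 TPM in replicate 1, reached that mean only through replicate 2, the library in which they were high. With no filter the claudin counts were also 4 higher and 3 lower. The 2-fold calls use the ratio of expected counts scaled by TMM, a scaling that centres the bulk of genes. The median log2 ratio was -0.44 over the claudins and 0.19 over all genes tested. The median over all genes was 0.45 when scaled by total counts and -0.09 as a ratio of TPM. Authors' intervals of TPM did not overlap between the libraries for 9 of 10 claudins, the exception being Cldn23, and the same held for 80.9% of all genes tested, so this count too was near the background.

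Cldn18, whose protein seals the alveolar epithelium, lies on chromosome 9 from 99689461 to 99717267 on the minus strand (ENSMUSG00000032473.9; this and later positions on mm10, the same assembly as GRCm38). It was at 407 and 176 TPM in replicates 1 and 2, or 291 ± 163 TPM (SD, n = 2). These levels rest on 12128 and 10401 expected counts, the deepest coverage of the 10 genes in replicate 1. Scaled for library size, the count was 1.49-fold lower in replicate 2 (95% counting interval 1.45 to 1.53, a log2 ratio of -0.57). On TPM, which also divides by the length of the transcripts in use, the level was 2.31-fold lower, and the transcripts in use are described further on. Of the 7 type 1 cell markers, whose cells carry this claudin, 3 were over 2-fold higher in replicate 2, 3 over 2-fold lower and 1 within. The background of all genes tested was 39.3% higher and 28.2% lower.

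Cldn5, the claudin of endothelial tight junctions, is a single-exon gene on chromosome 16 (18776847 to 18778262, plus strand, ENSMUSG00000041378.1). Its level was 0.43 and 607 TPM in replicates 1 and 2, or 304 ± 429 TPM (SD, n = 2). The counts were 6 and 11782, so that the scaled count was 1541-fold higher in replicate 2, with a 95% counting interval of 708 to 4199.9. Its log2 ratio of 10.49 ranked 37th from the top among the 14139 genes. Of 6 endothelial markers, 2 were past 2-fold upward, 2 past 2-fold downward and 2 in between, beside 39.3% upward and 28.2% downward of all genes tested. Egfl7, the marker of highest mean level, was at 61.3 and 759 TPM and was 26.0-fold higher in replicate 2 by scaled counts (23.2 to 29.2). Its main transcript has 58.3% GC. Pecam1 was at 74.4 and 219 TPM and Cdh5 at 105 and 143 TPM. Lower in replicate 2 were Tek at 171 and 74.97 TPM, Emcn at 141 and 63.6 TPM, and Kdr at 96.2 and 51.2 TPM. The part of cell content in the Cldn5 ratio was not tested.

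Cldn3 and Cldn4 are single-exon genes that neighbour each other on chromosome 5 in opposite directions, 39.3 kb apart. Cldn3 (134986214 to 134987472, plus strand, ENSMUSG00000070473.4), a sealing claudin of epithelia, was at 0.08 and 120.3 TPM in replicates 1 and 2. Its counts were 1 and 2042, a scaled ratio of 1602-fold with an interval of 287 to 63324, and its log2 ratio of 10.12 ranked 56th from the top. The width of the interval of the fold reflects the single count in replicate 1. Cldn4 (134945119 to 134946934, minus strand, ENSMUSG00000047501.2), which restricts the passage of sodium, was at 0.11 TPM and 3.47 TPM. It had 2 and 89 counts and was 34.9-fold higher in replicate 2 (9.39 to 293). Cldn4 was the claudin of lowest mean level, at 1.79 ± 2.38 TPM (SD, n = 2), while its signature is nearly that of Cldn3. The annotated gene Wbscr25, with 1 and 5 counts, lies antisense over Cldn3, and whether the counting used strand is not stated. Gm16004, antisense over Cldn18, had 0 counts in both libraries.

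Cldn7, found along the lateral membrane of epithelial cells as well as in the junction, was the claudin with the smallest ratio among those over 2-fold higher in replicate 2. It lies on chromosome 11 (69964779 to 69967885, plus strand, ENSMUSG00000018569.8). Its level was 10.4 and 56.9 TPM in replicates 1 and 2, or 33.6 ± 32.9 TPM (SD, n = 2). The 121 and 961 counts gave a scaled ratio of 6.23-fold (5.15 to 7.59). Among the 6 type 2 cell markers, 3 were past 2-fold upward, 1 past 2-fold downward and 2 in between, beside 39.3% upward and 28.2% downward of all genes tested. Sftpc, the surfactant protein C gene of these cells, was at 287 and 39612 TPM, while Lamp3, a lamellar body gene of the same cells, was at 687 and 191 TPM.

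Cldn1, Cldn8 and Cldn12 were the claudins over 2-fold lower in replicate 2, by similar factors. Cldn1, best known for the barrier of the epidermis, was at 17.9 and 4.45 TPM in replicates 1 and 2, from 615 and 215 counts, and was 3.65-fold lower (3.12 to 4.28). Its gene is on chromosome 16 (26356642 to 26371841, minus strand, ENSMUSG00000022512.2). Cldn8, a claudin that limits cation leak in tight epithelia, was at 9.82 and 2.30 TPM, from 239 and 79 counts, and was 3.86-fold lower (2.98 to 5.04). It lies elsewhere on chromosome 16 (88560828 to 88563183, minus strand, ENSMUSG00000050520.4). Cldn12, the claudin with the shortest stretch between its cysteines and without the PDZ-binding end, was at 35.0 and 9.27 TPM, from 1324 and 504 counts, and was 3.35-fold lower (3.02 to 3.72). Its gene is on chromosome 5 (5489537 to 5514958, minus strand, ENSMUSG00000046798.10). The counting intervals of these 3 ratios overlapped one another, so the counts do not resolve an order among them.

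Cldn10 and Cldn23 were the remaining claudins within 2-fold by scaled counts. Cldn10, which forms ion-selective pores, was at 111 and 42.4 TPM in replicates 1 and 2, or 76.5 ± 48.2 TPM (SD, n = 2). Its 1228 and 853 counts were 1.83-fold lower in replicate 2 (1.68 to 2.00), and its TPM was 2.61-fold lower. The gene spans 87.6 kb of chromosome 14 (118787908 to 118875489, plus strand, ENSMUSG00000022132.11). Cldn23, known from gut and skin epithelium, was at 3.85 and 2.81 TPM, or 3.33 ± 0.74 TPM (SD, n = 2). With 72 and 74 counts it was 1.24-fold lower in replicate 2, and its interval of 0.884 to 1.74 includes no difference. It lies on chromosome 8 (35824712 to 35826559, minus strand, ENSMUSG00000055976.5).

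The ratio between the libraries was ordered by base composition over the whole table, and the claudins spread widely on that axis. Over all 14009 tested genes with a main transcript in the reference (the transcript of highest mean TPM), the rank correlation of GC content with the log2 ratio was 0.873. Over the 10 claudins it was 0.976. Both are descriptions, since all points share the same 2 libraries. The GC content of the claudin main transcripts ran from 40.6% in Cldn8 to 62.7% in Cldn3. Above the upper quartile of all tested genes (54.6%) lay 5 claudins and below the lower quartile (44.99%) lay 4, so only Cldn18, at 47.8%, was in the middle range. The 4 claudins over 2-fold higher in replicate 2 had 56.8% to 62.7% GC, the 3 over 2-fold lower had 40.6% to 44.0%, and the 3 within 2-fold had 44.5% to 54.8%.

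**Figure D2:**
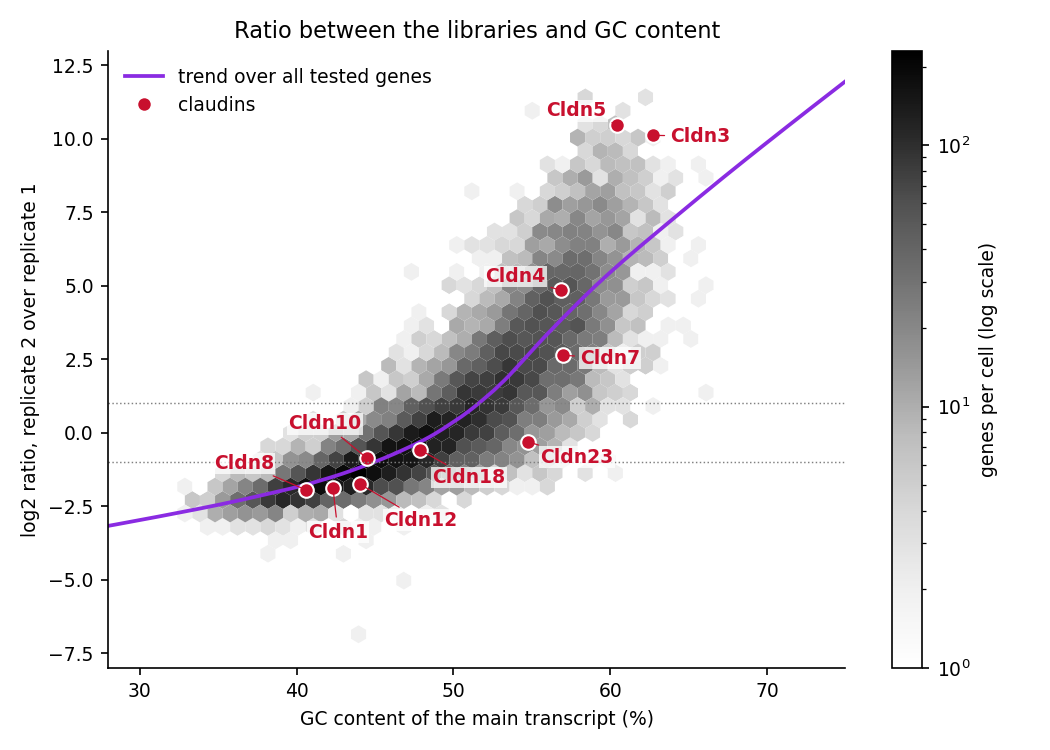
The log2 ratio of replicate 2 over replicate 1 against the GC content of the main transcript in percent, for 14009 tested genes (grey, darker where more genes fall, log colour scale) and for the 10 claudins (red). The purple line is the trend over all tested genes and the dotted lines mark 2-fold; 7 genes lie outside the axes. Cldn5 and Cldn3 lie above the line, Cldn23 and Cldn7 below it, and the claudins of low GC content close to it.

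Setting each claudin against the trend of all genes at its GC content gave a second reading of the ratios. After this subtraction, 3 of 10 claudins were over 2-fold higher in replicate 2, against 18.5% of all tested genes, and 2 were over 2-fold lower, against 16.2%. The 3 higher, Cldn5, Cldn3 and Cldn4, reached the mean of 1 TPM only through replicate 2, so no excess can be read from their share. Cldn5 lay 4.81 above the trend on the log2 scale and Cldn3 lay 3.40 above it, so both kept a ratio over 2-fold. Cldn4, at 1.02, was just over that threshold, on 2 counts in replicate 1. These values carry no counting interval, and the counts do not resolve the Cldn4 call. Cldn7 changed sign, to -1.28, and Cldn23 moved to -2.96, the value farthest below the trend. The other 5 lay between -0.56 (Cldn12) and 0.21 (Cldn10), and the quartiles of all tested genes were -0.62 and 0.66.

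GC content also varied along the transcripts, more in some claudins than in others. In Cldn3, Cldn4 and Cldn5 every window of 180 bases was above 50% GC. How many of all tested genes have only such windows was not counted, and a link with their levels was not tested. In Cldn7 79.3% of windows were above 50%, and in Cldn23 66.5%, whose coding sequence holds 63.7% GC but whose windows reach down to 32.8% GC toward the 3′ end. In the other 5 genes 18.2% to 38.8% of windows were above 50%. Cldn1, Cldn8, Cldn12 and Cldn18 had coding sequences of 53.0% to 56.1% GC, and their windows reached down to between 24.4% and 32.8%. At the last position of each codon, where most base changes leave the amino acid the same, GC content was 87.2% in Cldn3, 84.3% in Cldn4 and 79.4% in Cldn5, the 3 highest values, and 49.3% in Cldn10, the lowest.

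**Figure D3:**
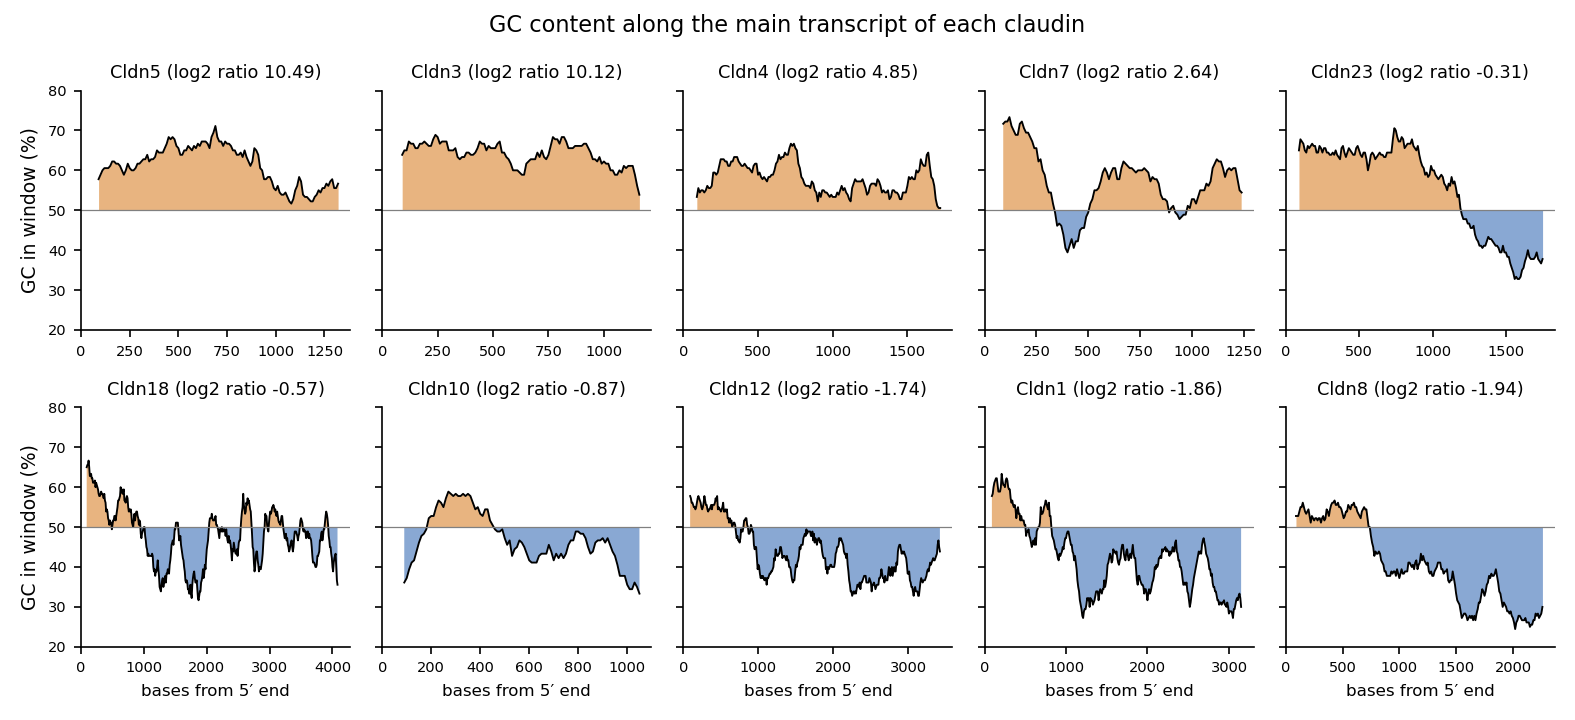
GC content in percent of windows of 180 bases, taken every 10 bases along the main transcript of each claudin from its 5′ end, ordered by the log2 ratio of replicate 2 over replicate 1 given above each panel. Orange fills mark windows above 50% and blue fills those below, and Cldn5, Cldn3 and Cldn4 have no blue.

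When the trend was taken on the AT-rich end of each transcript (the 10th percentile of GC content over its windows), 3 of 10 claudins were again over 2-fold higher, against 14.4% of all tested genes, and 0 were over 2-fold lower, against 11.8%. Of the 3 higher, Cldn5 and Cldn3 reached the mean of 1 TPM only through replicate 2, so here too no excess can be read from the share. Cldn5 stayed far above the trend, at 4.78, while Cldn3 was at 1.17 and Cldn7 at 1.03, both just past 2-fold. Cldn3 had 1 count in replicate 1, and the counts do not resolve the Cldn3 and Cldn7 calls. Cldn4 went to -0.64 and Cldn23 to 0.37. Cldn5 was the claudin farthest above both trends. What part base composition had in the difference of any single claudin was not tested.

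Of the 10 genes, 4 have more than 1 annotated transcript in the deposited tables, and for Cldn18 and Cldn10 the main transcripts encode different proteins. Both genes have alternative first coding exons that carry the start codon, the first membrane pass and most of the first extracellular loop. The 2 first coding exons of Cldn18 are shown first, since the division of its abundance between them differed between the libraries. By its known N-terminus the downstream exon encodes the form described in lung, and the upstream exon encodes the form described in stomach. Each exon is given 5′ to 3′ on the coding strand, and capitals mark the start codon, the tryptophan motif and the 2 cysteine codons.
Cldn18 lung-type, chr9:99709729-99709948, minus strand: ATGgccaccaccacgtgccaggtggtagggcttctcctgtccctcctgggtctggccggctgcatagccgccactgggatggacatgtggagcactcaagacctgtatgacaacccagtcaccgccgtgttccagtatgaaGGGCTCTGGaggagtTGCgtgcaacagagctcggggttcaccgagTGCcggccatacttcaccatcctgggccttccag
Cldn18 stomach-type, chr9:99716996-99717215, minus strand: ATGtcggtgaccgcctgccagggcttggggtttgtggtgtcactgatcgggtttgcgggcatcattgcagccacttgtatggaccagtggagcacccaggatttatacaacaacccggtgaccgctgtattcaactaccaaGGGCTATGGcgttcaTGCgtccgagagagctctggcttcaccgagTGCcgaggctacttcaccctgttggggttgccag

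The Cldn18 exons lie 7.05 kb apart, are 220 bases long each, and are identical at 69.5% of bases and 72.6% of encoded residues. Transcripts with the lung-type exon made up 59.25% of Cldn18 abundance in replicate 1 and 99.05% in replicate 2, which is 241 and 174 TPM. Transcripts with the stomach-type exon made up 40.74% and 0.95%, or 166 and 1.67 TPM. The lung-type form was the larger in both libraries, and the stomach-type form was high in replicate 1 only. All 5 listed genes of stomach and oesophagus were below 1 TPM in both libraries, and Tff1 and Krt4 were at 0. Their sums were 0.07 and 0.34 TPM in replicates 1 and 2, and Muc5ac among them had 0 and 24 counts. Whether other tissue had a part in the stomach-type share was not tested.

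The stomach-type transcript ENSMUST00000112882 and the lung-type transcript ENSMUST00000035048 differ at both ends, so their division did not rest on the first exon alone. Of its 1750 bases the stomach-type transcript has 272 that the other lacks, all in the first exon. The lung-type transcript has 4172 bases, of which 335 in the first exon and 2359 in the last exon are absent from the other. Which of the 2 ends set the deposited shares was not tested. The first coding exon has 61.4% GC in the lung-type form and 57.3% in the stomach-type form, while the whole transcripts have 47.8% and 48.2%. By expected counts, the stomach-type transcript held 24.0% of Cldn18 counts in replicate 1 (95% Clopper-Pearson interval 23.2 to 24.8) and 0.394% in replicate 2 (0.283 to 0.534). Another transcript, ENSMUST00000136429, has the lung-type exon and a shortened coding sequence of 208 codons against 264, and held 12.22% and 7.86% of abundance.

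**Figure D4:**
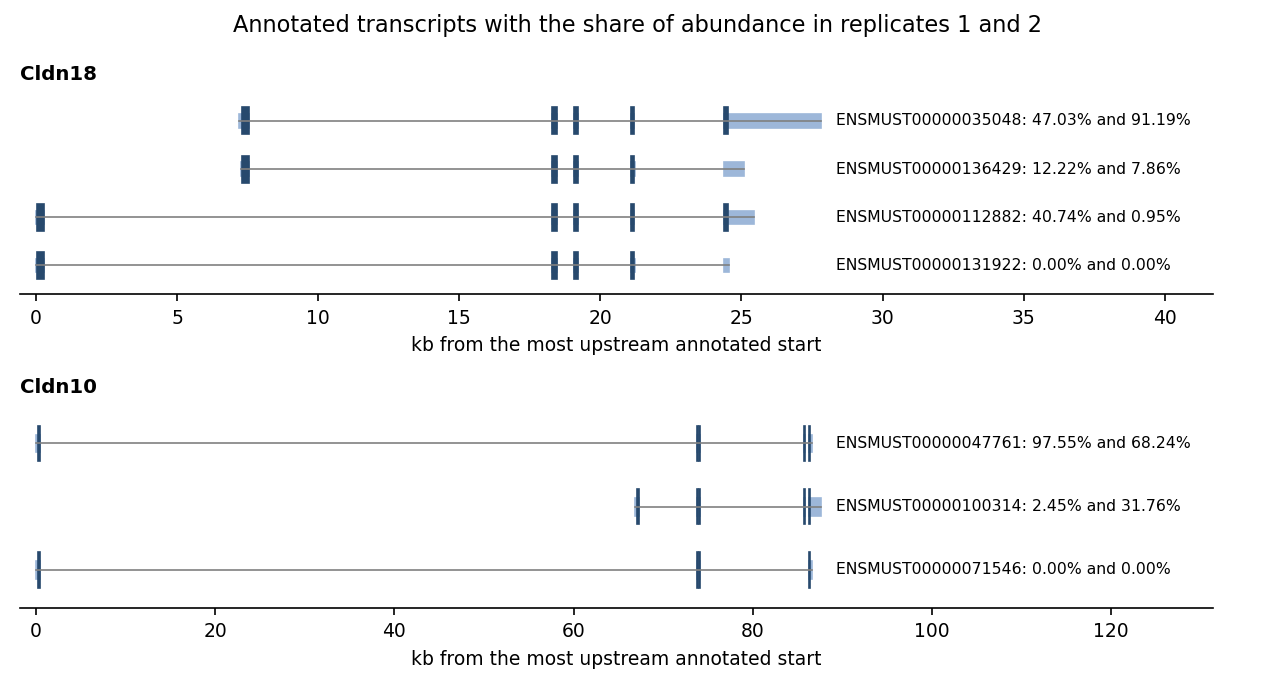
Annotated transcripts of Cldn18 and Cldn10 drawn to scale in kb from the most upstream annotated start, with exons in pale blue, coding parts in dark blue and introns as lines. Beside each is its share of the gene's abundance in replicates 1 and 2. In both genes the 2 main transcripts begin at different first exons and differ in the length of the last exon.

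For Cldn10 the alternative first exons encode claudin-10a, which passes anions, and claudin-10b, which passes cations. They are shown because, unlike those of Cldn18, they have little sequence in common, with capitals as above.
Cldn10 claudin-10a, chr14:118788157-118788370, plus strand: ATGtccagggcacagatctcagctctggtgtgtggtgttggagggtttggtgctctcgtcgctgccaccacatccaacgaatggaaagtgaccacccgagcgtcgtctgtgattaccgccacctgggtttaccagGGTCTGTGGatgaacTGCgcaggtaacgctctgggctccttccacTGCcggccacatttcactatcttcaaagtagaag
Cldn10 claudin-10b, chr14:118854990-118855209, plus strand: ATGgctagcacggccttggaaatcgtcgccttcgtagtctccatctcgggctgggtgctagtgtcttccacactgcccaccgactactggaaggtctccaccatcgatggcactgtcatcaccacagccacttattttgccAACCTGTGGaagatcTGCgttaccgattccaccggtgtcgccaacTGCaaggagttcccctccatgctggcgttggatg

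These exons lie 66.6 kb apart and are identical at 49.3% of aligned bases and 26.0% of encoded residues. In the claudin-10b exon the first codon of the tryptophan motif encodes asparagine in place of glycine. The claudin-10a transcript ENSMUST00000047761 made up 97.55% of Cldn10 abundance in replicate 1 and 68.24% in replicate 2, or 108 and 28.9 TPM. The claudin-10b transcript ENSMUST00000100314 made up 2.45% and 31.76%, or 2.70 and 13.4 TPM. Claudin-10a was thus the larger form in both libraries, while the level of claudin-10b was higher in replicate 2 and that of claudin-10a was lower. By expected counts the claudin-10b transcript held 4.805% in replicate 1 (3.68 to 6.15) and 48.4% in replicate 2 (45.02 to 51.83). The claudin-10b transcript has 49.8% GC and the claudin-10a transcript 44.5%. As with Cldn18 the last exons differ too, with 965 bases found only in claudin-10b.

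In Cldn12 and Cldn7 the transcript of highest share encoded the same protein in both libraries. In Cldn12, ENSMUST00000115446 held 75.35% of abundance in replicate 1 and 0% in replicate 2, while ENSMUST00000060947 held 0% and 76.77%. Both encode the same 244 codons, the former has 0 bases that the latter lacks, and the latter has 78 of its own. Added together, they held similar shares of Cldn12 in each library, and ENSMUST00000179804, with the same coding sequence, held 20.65% and 21.14%. For Cldn7 the main transcript ENSMUST00000018713 held 88.36% and 86.00%, and ENSMUST00000108597, with the same coding sequence, held 0% and 9.85%. The short ENSMUST00000151515, with 107 codons against 211, held 11.64% and 4.15%, from 2.64 and 7.15 expected counts.

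**Figure D5:**
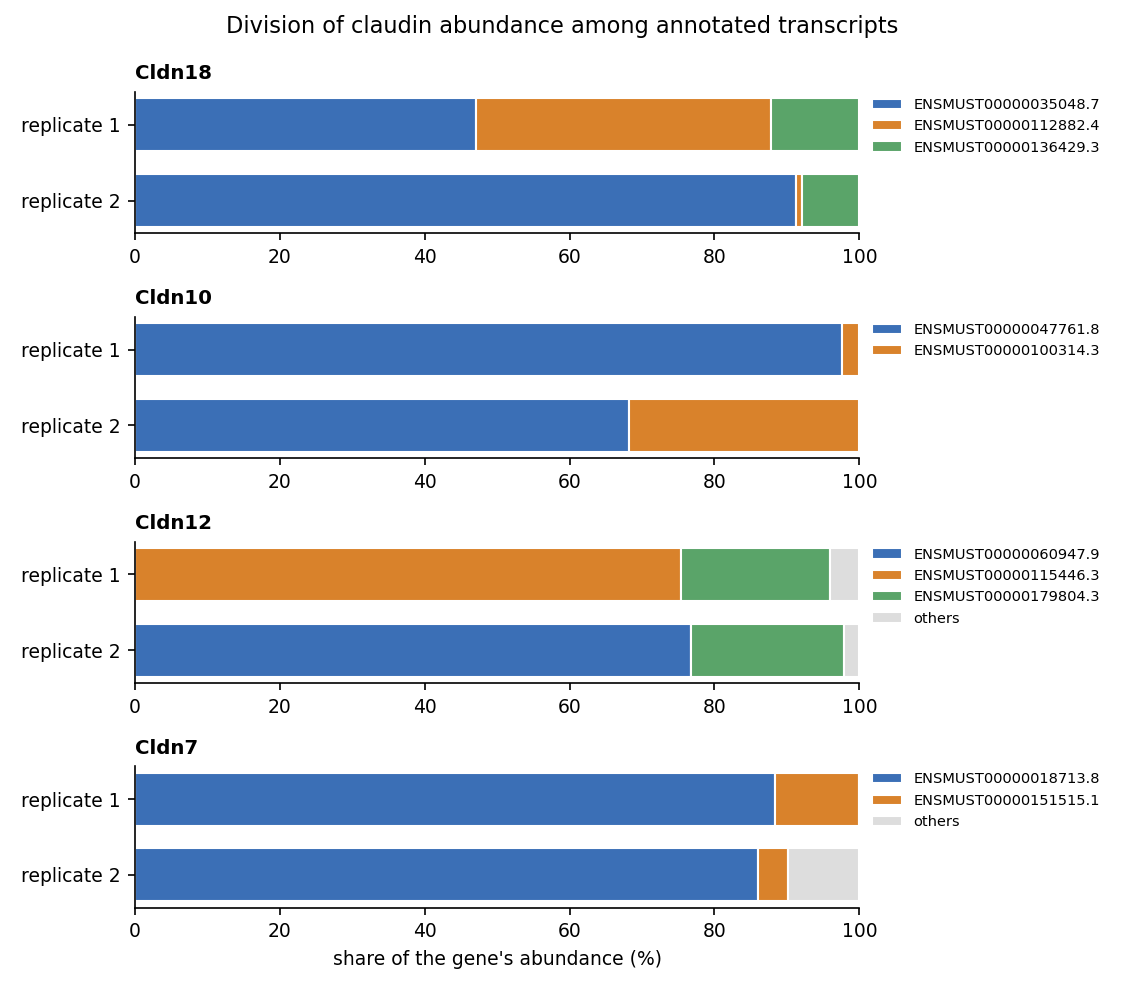
Share of each gene's abundance in percent assigned to its annotated transcripts in replicates 1 and 2, for the 4 claudins with more than 1 transcript. The stomach-type Cldn18 transcript (orange) holds 40.74% in replicate 1 and 0.95% in replicate 2, and the 2 Cldn12 transcripts that share a coding sequence (blue and orange) replace each other.

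Few other claudins were expressed. Of 22 further claudin symbols 21 matched, and 19 of these were below 1 TPM in both libraries, 12 of them at 0 in both. The exceptions were Cldn15, a pore-forming claudin of the intestine, at 4.0 and 13.03 TPM in replicates 1 and 2, and Cldn34c1, at 15.2 and 3.80 TPM. Cldn15 was 3.70-fold higher in replicate 2 by scaled counts (2.87 to 4.83) and has 54.1% GC, and Cldn34c1 was 4.30-fold lower and has 38.8% GC. Cldn2, the leaky claudin of transporting epithelia, was at 0.62 and 0.33 TPM.

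The partners of claudins in the junction were present in both libraries with 2 exceptions at 0 in replicate 1. Of 33 partner genes tested, 8 (24.2%) were past 2-fold upward in replicate 2, 9 (27.3%) past 2-fold downward and 16 in between, beside 39.3% and 28.2% of all genes tested, with a median log2 ratio of -0.06. Of the upward calls, Lsr, Tjp3 and Pard6a were below 1 TPM in replicate 1 and reached the mean of 1 TPM only through replicate 2. Occludin (Ocln), the tetraspan protein that accompanies claudins in strands, was at 40.1 and 24.5 TPM. Of the 6 occludin and tricellular junction genes, 1 was higher and 1 lower. Lsr, which brings tricellulin to the corners where 3 cells meet, was at 0.88 and 34.6 TPM, 43.0-fold higher in replicate 2 (27.1 to 72.8), with a main transcript of 57.9% GC. Ildr2 was at 2.68 and 1.19 TPM, and tricellulin itself (Marveld2) was at 7.11 and 5.12 TPM.

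Among 10 scaffold genes, 2 were over 2-fold higher in replicate 2 and 3 over 2-fold lower. Tjp1, encoding ZO-1, was at 97.6 and 38.8 TPM in replicates 1 and 2, and its main transcript has 46.8% GC. Tjp3, encoding ZO-3, had 0 and 426 counts, listed at 0 and 9.5 TPM. Against a floor of 3 counts in replicate 1, its scaled count was at least 111-fold higher in replicate 2. That bound holds at this floor only, since the exact 95% counting interval begins at 90.2-fold, and the main transcript has 60.7% GC. Tjp1 and Tjp3, whose proteins bind the same claudin tail, thus lay past the 2-fold limits on opposite sides. Cingulin (Cgn) was at 6.16 and 14.5 TPM, Magi3 at 61.1 and 17.2 TPM, and Ybx3, a transcription factor held at the junction, at 67.9 and 69.3 TPM.

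Of 6 genes of the junctional adhesion molecule family, Esam was over 2-fold higher in replicate 2, and Cxadr and Jam2 were over 2-fold lower. Esam, a junction gene of endothelial cells, was at 28.7 and 178 TPM, and Jam2 was at 39.4 and 14.05 TPM. F11r, which encodes JAM-A, was at 76.6 and 112 TPM, and Cxadr, the coxsackievirus and adenovirus receptor, at 78.3 and 19.7 TPM. Of 11 polarity genes, which set the position of the junction, 4 were over 2-fold higher in replicate 2 and 3 over 2-fold lower. The 3 lower were Mpp5 (Pals1) at 72.2 and 19.6 TPM, the atypical protein kinase C gene Prkci at 67.3 and 25.6 TPM, and Amot at 5.06 and 1.12 TPM. Amotl2 was at 72.4 and 52.2 TPM. Pard6a had 0 and 122 counts, at least 31.9-fold higher in replicate 2 against the same floor, with an exact 95% counting interval that begins at 25.6-fold.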

How the data were processed

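Both libraries are polyA RNA-seq of 1 lung. Per the labels the assembly is mm10 and the deposited annotation is GENCODE M4, with the aligner and quantifier not given in the sources used here. The authors deposited expected counts, estimated reads for each gene and transcript per the file headers. TPM and FPKM were computed by the authors, per the file headers, as were the TPM interval bounds, whose confidence level is not given. Each transcript's percent of its gene's abundance was deposited by the authors as well.

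Expected counts were rounded and scaled by TMM (edgeR 4.0.16, R 4.3.3; factors 0.913 and 1.10), and ratios of replicate 2 over replicate 1 were taken with a prior of 0.5 counts. Folds carry no prior and have exact Clopper-Pearson 95% intervals, which cover counting error only. A count of 0 allows up to 3 counts, or 0.186 and 0.175 CPM. Genes that reached a mean of 1 TPM were tested, and called past 2-fold. Symbols, positions and sequences came from GENCODE M21, in which 22 of 25 claudin transcripts have their deposited length. GC trends were lowess fits with a span of 0.3. The ratio code was tested on simulated data. Alternatives were other scalings, filters, priors and trends.

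The claudins, partner lists and markers were chosen with earlier results of these data known. Named partners were the 3 of highest mean TPM per list and those past 2-fold in the direction that fewer of the list take, and others were named after their values were seen. With 2 libraries the likeness of genes over samples could not be measured. Python 3.11.15, pandas 2.3.3 and statsmodels 0.14.6 were used.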

Additional observations from a re-analysis of the deposited data

How the results depend on the processing

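Under scaling by total counts, DESeq2's size factors (1.42.0), ratios of TPM or a prior of 2 counts, 40 of 40 single claudin ratios kept their sign. Counts of claudins over 2-fold higher were 3 or 4 under every setting run. Over 2-fold lower were 5 by ratio of TPM, where Cldn10 and Cldn18 joined, 1 after subtracting the trend on the mean GC content of all annotated transcripts, and 0 after the trend on AT-rich windows. Under the 3 GC trends 22 of 30 single ratios kept their sign. Of called claudins, Cldn7 went to -0.96 (annotated transcripts) and -1.28 (main transcript), Cldn1 to 0.0029 (annotated transcripts) and Cldn4 to -0.64 (AT-rich windows). Cldn12 was at -3.36 with annotated transcripts, whose short members raise its GC content to 53.1% from 44.0% in the main transcript, and Cldn23 at 0.03. The trends on main transcripts and on windows were chosen after seeing the data.

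The summed level of 809.6 TPM was 764 TPM by posterior means, 679 FPKM, 506 TPM without Cldn5 (chosen after seeing the data), and 595 to 1024 TPM when leaving out either library. Of 20 transcript shares recomputed from expected counts or posterior means, 13 stayed within the SD and 7 moved further. No paired analysis was possible because both libraries belong to 1 group. The 1 to 6 counts of Cldn3, Cldn4 and Cldn5 in replicate 1 limit the precision of their folds and of their distances from the GC trends.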
